A study of Mus musculus with 8 samples.

Results

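Zinc transporters and metallothioneins were followed in pancreatic beta cells of mice fed a high-fat diet, with 10 genes chosen by name: the zinc exporters Slc30a8, Slc30a1, Slc30a5 and Slc30a7, the zinc importers Slc39a6, Slc39a7, Slc39a10 and Slc39a14, and the metallothioneins Mt1 and Mt2. Every non-control probe that the scanner files assign to one of these names was taken, which gave 13 probes, out of 39429 probes for 30028 gene names in all. Slc30a7 had 3 probes, Mt1 had 2 and each of the other genes had 1. All animals were C57BL/6 mice. There were 4 samples from the high-fat diet and 4 from the control diet, which the source labels call chow, and the 4 of each diet are labelled as biological replicates. No genetic change or drug is named for either group. Age, sex, length of feeding, composition of the diets and the way the beta cells were isolated are not given in the sources used here. Each RNA sample was labelled with 1 dye and hybridised to 1 Agilent mouse array, and each of 2 slides carried 2 arrays of each diet.

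Beta cells hold a large pool of zinc in their secretory granules, where zinc ions hold insulin together as hexamers. Proteins of the SLC30 family (also called ZnT) move zinc out of the cytosol, into organelles or out of the cell, and proteins of the SLC39 family (also called ZIP) move it into the cytosol. Metallothioneins are small cysteine-rich proteins that bind zinc and copper, and their genes are switched on by the zinc-sensing transcription factor MTF1, which also acts on Slc30a1, as well as by glucocorticoids and oxidative stress.

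Levels are given as the log2 of the scanner's processed signal minus the 75th percentile of the same array, so that 0 is the signal at that percentile and a step of 1 is a factor of 2. A difference is the high-fat mean minus the control mean, and its error is the standard error from limma. Levels of different probes are not set against each other, because probes differ in how strongly they bind. The arrays had between 63.6% and 68.6% of their 43020 non-control spots well above background. Of all 39429 probes, 26084 were well above background on at least 4 of the 8 arrays and were kept. The label of the cells was checked against markers: all 10 beta cell markers, Ins1 and Ins2 among them, were well above background on all 8 arrays. But so were 11 of 11 acinar, 6 of 7 alpha and 6 of 6 delta and PP cell markers. The same held for 9 of 9 endothelial and stellate, 8 of 8 macrophage and lymphocyte and 3 of 6 ductal markers. The samples were thus not of beta cells alone. In such mixed samples, fewer cells of a type and less RNA per cell cannot be told apart. Lower means on the high-fat diet were found for 5 of the 6 alpha markers measured and for 6 of 6 delta and PP markers, against 13694 of 26082 probes in all. The mean level of the 6 alpha markers was 1.49 to 1.93 on the high-fat diet, against 2.17 to 2.72 on the control diet. That of the 6 delta and PP markers was 3.12 to 3.40, against 3.48 to 3.78. The median difference was -0.88 over the alpha markers, with 4 of 6 lower at an unadjusted p under 0.05, and -0.42 over the delta and PP markers, likewise with 4 of 6, against 3.45% of all probes lower at that p, and 0 passed after adjustment. None of these measured markers was at background. The 10 beta cell markers had a median of -0.057, with 5 above 0 and 5 below. They ran from -0.47 (Slc2a2) to 0.33 (G6pc2), both at an unadjusted p under 0.05 by limma. The 8 macrophage and lymphocyte markers had a median of -0.45, with 6 of 8 lower and 0 at that p. The part of any of these cell types in the zinc gene values was not tested.

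All 13 probes were well above background on all 8 arrays, and none was saturated. No zinc gene differed between the diets past the threshold. Slc30a8, Slc30a1, Mt1 and Mt2 had lower means on the high-fat diet, and the other 6 genes had higher means, but in every case the diets overlapped. At an adjusted p under 0.05, 0 of the 13 probes were called (limma, Benjamini-Hochberg over 26082 probes with a fit), against a background of 0% of all probes. At an unadjusted p under 0.05, 0 of the 13 were past the threshold in this fit, against 5.78% of all probes (2.33% higher and 3.45% lower on the high-fat diet). This count depended on the processing and reached 6 of the 13 under some alternatives given below. Groups without overlap were seen for 0 of the 13, against 3.39% of all probes. The adjusted p of the 13 probes ran between 0.869 and 0.979, and the exact permutation p, two-sided and over the 8 samples, between 0.0857 and 0.686. The smallest value that 4 against 4 allows is 0.0286. The median difference was 0.12 over the 13 probes and -0.013 over all probes. A p above the threshold does not show equal levels, so each difference is given with its 95% interval.

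**Figure D1:**
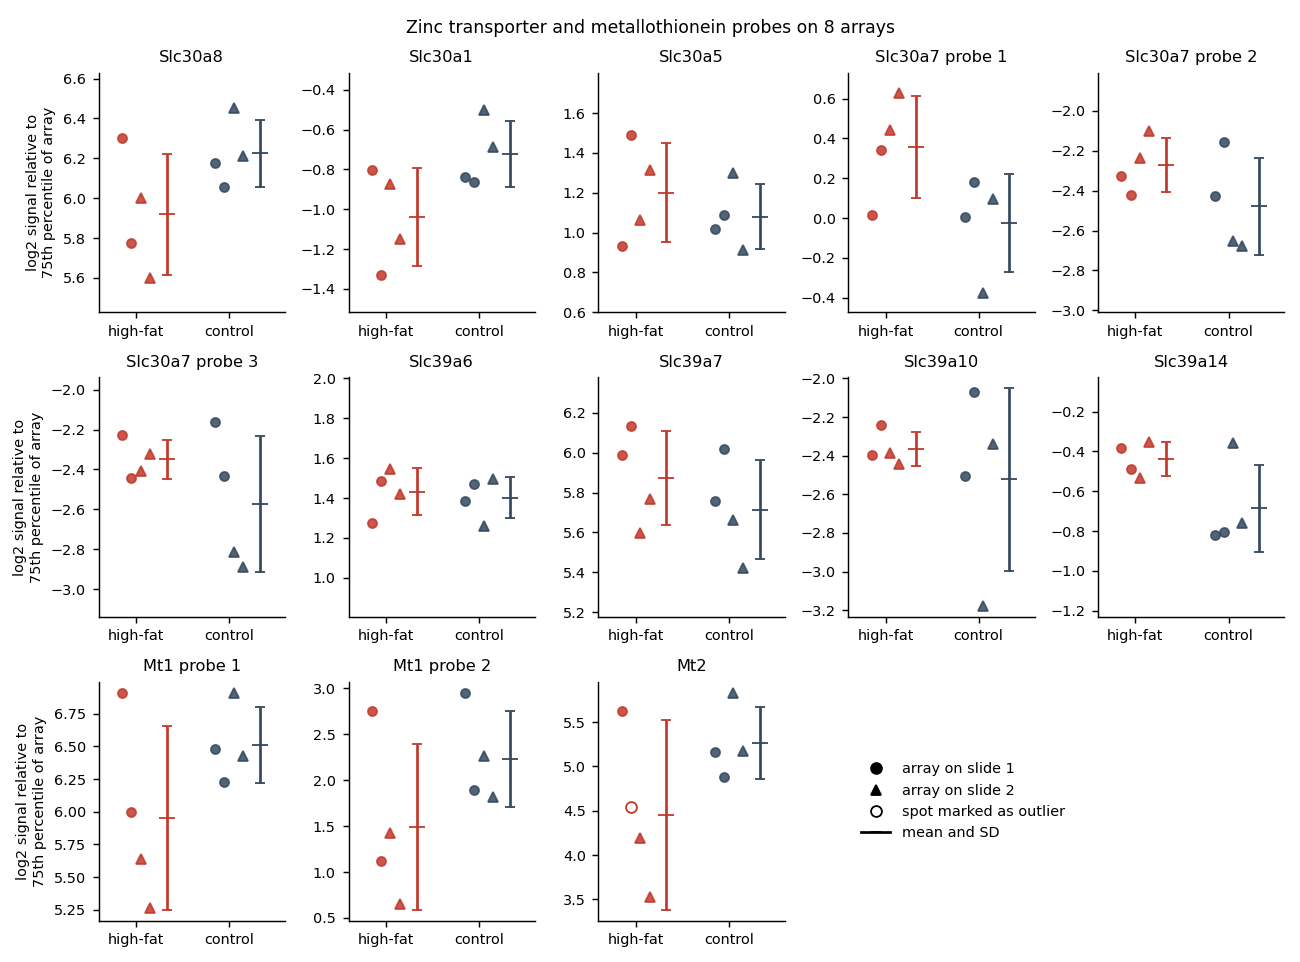
Level of each of the 13 probes on every array, in log2 units relative to the array's 75th percentile, with high-fat arrays on the left and control arrays on the right of each pair; circles are arrays of slide 1, triangles those of slide 2, the open symbol is a spot left out of the fit, bars are the mean and SD, and each panel has its own scale. Mt1 probe 1 is that for NM_013602, and Slc30a7 probes are numbered in the order described in the text. The diets overlap for all 13 probes, and the widest spread is that of the high-fat arrays for Mt1 and Mt2.

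Among the exporters, Slc30a8 encodes ZnT8, the transporter that loads zinc into insulin granules. Its probe lies at chr15:52167214-52167273 on the + strand (mm9, as are the other probe positions). The level of Slc30a8 on the high-fat diet was 6.30, 5.77, 6.00 and 5.60 on arrays 1 to 4, and on the control diet it was 6.17, 6.06, 6.46 and 6.21. High-fat arrays 2, 3 and 4 lay below all control arrays, and high-fat array 1 lay among the controls. The means were 5.92 ± 0.30 on the high-fat diet and 6.22 ± 0.17 on the control diet (SD, n = 4 each). The difference in Slc30a8 was -0.31 ± 0.17 (95% interval -0.69 to 0.08, limma adjusted p = 0.906, exact permutation p = 0.171), which as a fold is 0.618 to 1.06 times the control level. It was -0.077 on slide 1 and -0.53 on slide 2. With high-fat array 1 left out it was -0.43, at an adjusted p of 0.396 by limma, and with high-fat array 4 left out it was -0.20.

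Slc30a1 encodes ZnT1, which exports zinc across the plasma membrane and is a known MTF1 target. Its probe lies at chr1:193736760-193736819 on the + strand. The level of Slc30a1 on the high-fat diet was -0.80, -1.33, -0.87 and -1.15, against -0.84, -0.86, -0.50 and -0.69 on the control diet. High-fat arrays 2, 3 and 4 again lay below every control array, here by little for array 3. The means were -1.04 ± 0.25 on the high-fat diet and -0.72 ± 0.16 on the control diet (SD, n = 4 each). The difference in Slc30a1 was -0.32 ± 0.15 (95% interval -0.66 to 0.03, limma adjusted p = 0.873, exact permutation p = 0.114). The sign was the same on both slides, with -0.22 on slide 1 and -0.41 on slide 2. The size depended on the processing, with -0.15 in the deposited values and -0.0037 when the background was corrected by normexp, or -0.28 under normexp without spots of high local background.

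Slc30a5 and Slc30a7 encode ZnT5 and ZnT7, which carry zinc into the early secretory pathway and the Golgi. Slc30a5 (chr13:101572862-101572921, - strand) had levels of 0.93, 1.49, 1.06 and 1.31 on the high-fat diet, against 1.02, 1.09, 1.30 and 0.91 on the control diet. The groups lay over each other, and the difference was 0.12 ± 0.15 (95% interval -0.23 to 0.47, limma adjusted p = 0.938). The 3 probes of Slc30a7 lie on the - strand of chromosome 3. The first, at chr3:115649542-115649601, read 0.015, 0.34, 0.44 and 0.63 on the high-fat diet, against 0.0059, 0.18, -0.38 and 0.095 on the control diet. High-fat arrays 2, 3 and 4 lay above every control array, and array 1 lay among them. For this Slc30a7 probe the difference was 0.38 ± 0.17 (95% interval -0.017 to 0.78, limma adjusted p = 0.869, exact permutation p = 0.0857), and no other of the 13 probes had a smaller p. The second Slc30a7 probe, at chr3:115645497-115645556, read -2.33, -2.42, -2.24 and -2.10 on the high-fat diet, against -2.43, -2.16, -2.65 and -2.68 on the control diet, and differed by 0.21 ± 0.15 (95% interval -0.13 to 0.54). The third Slc30a7 probe, at chr3:115645002-115645061, read -2.22, -2.44, -2.41 and -2.32 on the high-fat diet, against -2.16, -2.43, -2.81 and -2.89 on the control diet, and differed by 0.23 ± 0.17 (95% interval -0.17 to 0.62). On both probes controls 3 and 4 were the lowest arrays. All 3 probes thus had a higher mean on the high-fat diet without passing the test. On slide 2 their differences were 0.68, 0.50 and 0.49, while on slide 1 they were 0.083, -0.082 and -0.037, so the higher means lay mostly on slide 2.

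The importers showed small differences. Slc39a6 and Slc39a10 encode ZIP6 and ZIP10, which form a complex at the plasma membrane. Slc39a6 (chr18:24738561-24738620, - strand) had levels of 1.28, 1.49, 1.55 and 1.42 on the high-fat diet, against 1.39, 1.47, 1.26 and 1.49 on the control diet. The difference in Slc39a6 was 0.03 ± 0.11 (95% interval -0.22 to 0.28), the narrowest interval of the 13 probes, which as a fold is 0.860 to 1.21 times the control level in this fit. Under normexp it was -0.22, or 0.042 without spots of high local background. Slc39a10 (chr1:46865343-46865402, - strand) had levels of -2.40, -2.24, -2.39 and -2.44 on the high-fat diet, against -2.51, -2.07, -3.18 and -2.34 on the control diet. Control array 3 was the lowest, and the high-fat arrays lay inside the range of the other controls. The difference in Slc39a10 was 0.16 ± 0.22 (95% interval -0.35 to 0.66), and without control array 3 it was -0.061.

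Slc39a7 encodes ZIP7, which releases zinc from the endoplasmic reticulum and Golgi. Slc39a7 (chr17:34165279-34165338, - strand) had levels of 5.99, 6.13, 5.60 and 5.77 on the high-fat diet, against 5.76, 6.02, 5.66 and 5.42 on the control diet. Arrays of slide 1 were higher than the same diet's arrays of slide 2 in both groups, and the difference was 0.16 ± 0.17 (95% interval -0.23 to 0.54), or 0.16 ± 0.11 with the slide in the fit. Slc39a14 encodes ZIP14, an importer of zinc, iron and manganese that is known in liver as an acute-phase gene. Slc39a14 (chr14:70703394-70703453, - strand) had levels of -0.38, -0.49, -0.53 and -0.36 on the high-fat diet, against -0.82, -0.80, -0.36 and -0.76 on the control diet. Controls 1, 2 and 4 lay below all high-fat arrays, and control 3 lay among the highest of them. The difference in Slc39a14 was 0.24 ± 0.13 (95% interval -0.055 to 0.54, limma adjusted p = 0.897, exact permutation p = 0.114), and without control 3 it was 0.35, at an adjusted p of 0.507 by limma.

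Mt1 and Mt2 are neighbours on chromosome 8, and MTF1 acts on them through short metal response elements. The core of this element was searched as TGCACNC or TGCGCNC on both strands of 300-base promoter windows (250 bases before to 50 after the gene start, RefSeq, GRCm38.p6), which were at hand for 7 of the 10 genes. Mt2 had 4 matches, Mt1 had 3, Slc30a1 had 2 and Slc30a5 had 1, while the windows of Slc30a7, Slc39a7 and Slc39a10 had none. Slc30a8, Slc39a6 and Slc39a14 were not searched. Of all 32851 windows of this length, 25.7% held at least 1 match, 7.11% at least 2, 1.97% at least 3 and 0.517% at least 4. A match is only a run of letters and no measure of binding. The sequences below show the matched letters in capitals for the 3 genes with more than 1 match, all on the + strand, with a core on the opposite strand appearing as its reverse complement. The first is the window of 250 bases before the start of Mt2 (chr8:94172368-94172617), then come a stretch of 30 bases around its last match (chr8:94172611-94172640), 2 stretches of Mt1 (chr8:94179055-94179084 and chr8:94179098-94179127), whose remaining match begins at base 253 of its window, and 2 of Slc30a1 (chr1:191906727-191906756 and chr1:191906800-191906829).
Mt2 upstream window: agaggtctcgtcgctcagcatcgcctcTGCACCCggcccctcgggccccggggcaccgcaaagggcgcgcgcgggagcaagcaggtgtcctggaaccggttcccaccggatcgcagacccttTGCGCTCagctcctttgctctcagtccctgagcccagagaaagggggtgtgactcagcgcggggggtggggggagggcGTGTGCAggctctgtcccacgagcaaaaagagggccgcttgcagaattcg
Mt2 last match: gaattcgggtcGTGCGCAggcccaggggcg
Mt1 first match: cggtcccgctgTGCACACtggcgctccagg
Mt1 last match: cgcccgaaaagTGCGCTCggctctgccaag
Slc30a1 first match: acgggggttccGAGTGCAaagcaaagtttt
Slc30a1 last match: gcctccgggccGAGCGCAgtcgccgcggac

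The 3 genes with more than 1 match, Mt2, Mt1 and Slc30a1, all had lower means on the high-fat diet, and none passed the test. Over all probes, 13694 of 26082 had lower means. Mt1 and Mt2 vary together, so they are not separate cases, and Slc30a8, also lower, was not searched. Whether the matches have to do with the differences was not tested. The Mt1 probe for the gene's RefSeq transcript (NM_013602, chr8:96704165-96704224, + strand) had levels of 6.91, 6.00, 5.64 and 5.27 on the high-fat diet, against 6.48, 6.23, 6.91 and 6.43 on the control diet. High-fat arrays 2, 3 and 4 lay below every control array, whereas high-fat array 1 was as high as control 3, the highest control. The means were 5.95 ± 0.70 on the high-fat diet and 6.51 ± 0.29 on the control diet (SD, n = 4 each). The difference in Mt1 was -0.56 ± 0.33 (95% interval -1.32 to 0.20, limma adjusted p = 0.913, exact permutation p = 0.171).

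The other Mt1 probe, listed for a predicted transcript variant (XM_006530752, chr8:96703844-96703903), read 2.76, 1.12, 1.43 and 0.66 on the high-fat diet, against 2.95, 1.89, 2.26 and 1.82 on the control diet. Array 1 was the highest of its group in both diets, and high-fat arrays 2, 3 and 4 lay below all controls. For this probe the difference was -0.74 ± 0.45 (95% interval -1.77 to 0.29, limma adjusted p = 0.917). Both Mt1 probes had the same sign, and they may share transcripts, so they are not independent measurements.

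Mt2 (chr8:96697371-96697430, + strand) could be fitted on 3 high-fat arrays only, since the scanner software marked its single spot on high-fat array 2 as a non-uniformity outlier. The level of Mt2 was 5.62, 4.20 and 3.53 on high-fat arrays 1, 3 and 4, against 5.16, 4.88, 5.83 and 5.18 on the control diet. The marked spot read 4.54. High-fat arrays 3 and 4, and the marked spot of array 2, lay below all controls, and high-fat array 1 lay above 3 of the 4 controls. The means were 4.45 ± 1.07 on the high-fat diet (SD, n = 3) and 5.26 ± 0.40 on the control diet (SD, n = 4). The difference in Mt2 was -0.81 ± 0.48 (95% interval -1.94 to 0.31, limma adjusted p = 0.913), and with the marked spot kept it was -0.79 ± 0.42 (adjusted p = 0.890).

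Mt2 varied together with the NM_013602 probe of Mt1 from array to array. Over the 7 arrays with a value for both, Pearson's r was 0.995 and Spearman's rho was 0.964 (exact permutation p = 0.000397 and 0.00278, two-sided). Without high-fat arrays 3 and 4, the arrays farthest from the median of Mt1, r was 0.980 and rho was 0.900 over 5 arrays (exact permutation p = 0.0167 and 0.0833). With the marked spot included, r was 0.995 over 8 arrays. For the other Mt1 probe, r with Mt2 was 0.848 and rho was 0.679 over the same 7 arrays (exact permutation p = 0.0163 and 0.110), and without its 2 farthest arrays, high-fat 4 and control 1, r was 0.851 (exact permutation p = 0.0833). These 2 relations were tested, and adjusted over both the exact permutation p of r was 0.000794 for the NM_013602 probe and 0.0163 for the other. The permutations ran over all arrays whatever their diet and slide. Their p therefore also takes in any diet or slide pattern that both genes share, and does not measure agreement within a diet. Each slide holds too few arrays for a value of its own.

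**Figure D2:**
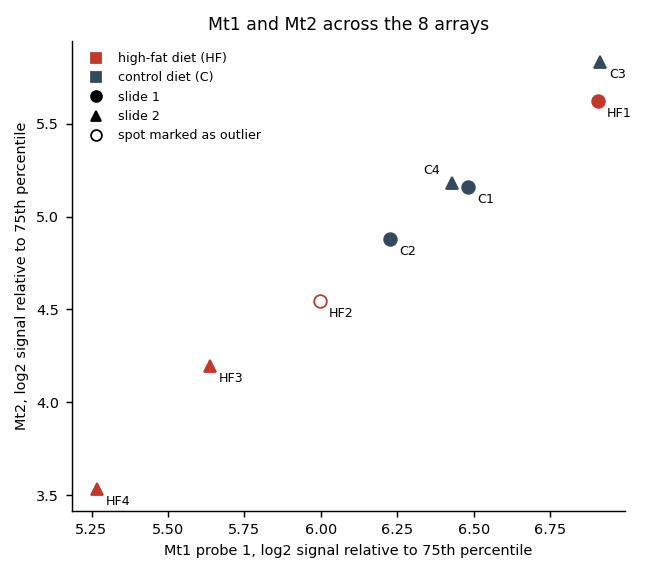
Level of Mt2 against the level of Mt1 (NM_013602 probe) on each array, both in log2 units relative to the array's 75th percentile; red marks the high-fat and dark blue the control diet, circles are slide 1 and triangles slide 2, and the open symbol is the marked Mt2 spot of high-fat array 2. The arrays fall along 1 line, with high-fat arrays 4 and 3 at the low end and control 3 and high-fat array 1 at the high end.

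The metallothionein differences were larger in size on slide 2 than on slide 1 for all 3 probes, but the difference between the slides did not pass the test. For the NM_013602 probe of Mt1 it was 0.097 on slide 1, with high-fat and control arrays 1 and 2, and -1.22 on slide 2, with arrays 3 and 4. For the other Mt1 probe it was -0.49 on slide 1 and -0.99 on slide 2. For Mt2 it was 0.60 on slide 1, from 1 high-fat array, or 0.064 with the marked spot kept, and -1.64 on slide 2. The test of the difference between slides (limma, slide 2 minus slide 1) gave -1.32 ± 0.48 for the NM_013602 probe (unadjusted p = 0.0311), -2.24 ± 0.51 for Mt2 (unadjusted p = 0.00609) and -0.51 ± 0.87 for the other Mt1 probe (unadjusted p = 0.576). The adjusted p by limma was 0.744 for the NM_013602 probe and for Mt2. Together with the second Slc30a7 probe (unadjusted p = 0.0337 by limma), 3 of the 13 probes had an unadjusted p under 0.05 in this test, against 6.54% of all probes, and 0 passed after adjustment, against 0%. Of the 13 probes, 6 had opposite signs on the slides, against 47.5% of all probes. With the slide as a term in the fit, the adjusted p of the 13 probes ran between 0.704 and 0.951 by limma.

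**Figure D3:**
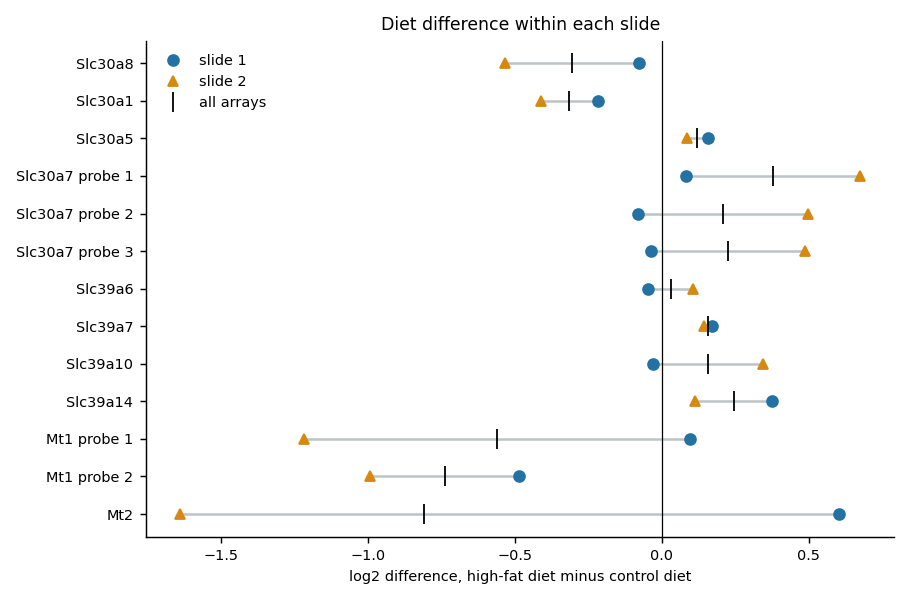
Difference between the diets (high-fat minus control, log2) on slide 1 (circles) and on slide 2 (triangles) for each probe, with a short vertical line for all arrays; the Mt2 value of slide 1 rests on 1 high-fat array. The Mt2 and Mt1 probes and the 3 Slc30a7 probes lie apart on the slides, while those of Slc30a1, Slc30a5 and Slc39a7 lie close together with the same sign on both.

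High-fat array 1 also weighed on these values. Without it, 6 of the 13 probes had an unadjusted p under 0.05, namely those of Slc30a8, Slc30a1, the first Slc30a7 probe, both Mt1 probes and Mt2, against 10.4% of all probes in the same fit, and 0 passed after adjustment, against 0%. The difference in Mt2 was then -1.40, and the Mt1 differences were -0.88 and -1.16. Their adjusted p by limma was 0.261, 0.290 and 0.314. Without high-fat array 4 the same differences were -0.35 for Mt2 and -0.33 and -0.46 for the Mt1 probes. Leaving out any array other than high-fat array 1 put 0 to 2 of the 13 probes at an unadjusted p under 0.05, and 1043 to 2477 of all probes. High-fat array 1 was singled out after every array had been left out in turn. The 6 probes named above were picked by the fit without it. That it lay within the range of the controls on these probes, and that each difference grew without it, follows in part from that choice. It is a description only of these 6 probes. The Mt1 and Mt2 probes among them vary together, so they are not separate results. The acinar markers moved between arrays as well: the mean level of the 11 genes was 7.91, 7.63, 7.08 and 7.32 on high-fat arrays 1 to 4, against 6.79, 7.45, 7.89 and 7.36 on the control arrays. High-fat array 1 and control 3, the highest arrays of their group for acinar markers, were also the highest of their group for the NM_013602 probe of Mt1 and for Mt2. The other Mt1 probe was highest on high-fat array 1 too, but its highest control was array 1 (2.95), the control with the lowest acinar level. The median difference of the acinar markers was 0.57 on slide 1 and -0.37 on slide 2. Their part in the metallothionein values was not tested.

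Other genes of the transporter families were counted by 1 probe a gene, the kept probe with the highest mean. Of 6 other SLC30 exporters, 4 were measured. On the chosen probes all 4 differences were above 0, against 47.5% of all probes, and the median was 0.13. At an unadjusted p under 0.05 there were 0, against 5.78% of all probes. Slc30a4 differed by 0.15 ± 0.12, Slc30a6 by 0.20 ± 0.14 and Slc30a9 by 0.05 ± 0.16, while the other Slc30a9 probe differed by -0.10 ± 0.24. Slc30a3, Slc30a10, both Slc39a12 probes and the other probe of Slc39a11 were well above background on too few arrays to be kept. Of 10 other SLC39 importers, 9 were measured, 8 of them above 0, against 47.5% of all probes, with a median of 0.099. Slc39a1, an importer of the plasma membrane, differed by 0.10 ± 0.11. Slc39a11 and Slc39a13, importers of the Golgi and early secretory pathway, had an unadjusted p under 0.05, and their groups did not overlap. These were 2 of the 9, both higher, against 2.33% of all probes higher at that p. Slc39a11 (chr11:113106171-113106230) had levels of 3.24, 3.46, 3.33 and 3.43 on the high-fat diet, against 2.36, 2.79, 3.18 and 2.75 on the control diet. The difference in Slc39a11 was 0.59 ± 0.17 (limma adjusted p = 0.700), with 0.77 on slide 1 and 0.41 on slide 2. Slc39a13 (chr2:90901965-90902024), known for its role in connective tissue, had levels of 1.79, 1.99, 2.00 and 1.95 on the high-fat diet, against 1.68, 1.71, 1.50 and 1.74 on the control diet. The difference in Slc39a13 was 0.27 ± 0.10 (limma adjusted p = 0.805). In both genes the lowest high-fat array exceeded the highest control, which held for 1.6% of all probes. Slc39a13 turned to -0.074 when the background was corrected by normexp, and was 0.28 under normexp without spots of high local background.

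The zinc sensor itself and the remaining metallothioneins did not pass the test either. Mtf1 differed by -0.15 ± 0.10 on 1 probe, with -0.14 on slide 1 and -0.15 on slide 2, and by 0.0078 ± 0.20 on the other kept probe, with 0.21 on slide 1 and -0.19 on slide 2. Mt3, known from brain, differed by 0.01 ± 0.15, and Mt4, known from stratified epithelia, differed by 0.47 ± 0.24. Other genes that respond to the known inducers of metallothioneins were counted beside them, from lists written by hand. Of 10 glucocorticoid-responsive genes, 9 were above 0, and 4 of those had an unadjusted p under 0.05, the list's median being 0.41. Over all probes 47.5% were above 0 and 2.33% were higher at that p. Of 12 oxidative stress genes measured, 8 were above 0 and 0 were at an unadjusted p under 0.05, with a median of 0.056. After adjustment, 0 genes of either list were called. What these lists have to do with the metallothionein values was not tested.

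Zinc in beta cells is stored with insulin, so a list of genes counted as granule genes was set beside the transporters. Ins1 differed by 0.03 ± 0.19 and Ins2 by 0.04 ± 0.17, with opposite signs on the slides for both. Of 16 genes on this list, 15 were above 0, against 47.5% of all probes, and the median was 0.13. An unadjusted p under 0.05 was reached by 1 gene above 0 and 1 below, against 2.33% of all probes higher and 3.45% lower. These were G6pc2 (0.33 ± 0.11) and Slc18a2 (-0.79 ± 0.30). G6pc2 is also counted among the beta cell markers, so its value is not particular to granules. After adjustment 0 were called. Over the 8 arrays, the probes most like Slc30a8 were those of Cer1 (r = 0.983), Hnrnph3 (r = 0.978) and Pcm1 (r = 0.973), and those most like the NM_013602 probe of Mt1 were Jak3 (r = 0.989), Ubox5 (r = 0.985) and a predicted gene (r = 0.978). These were picked as the highest of all probes, leaving out the listed genes, and are a description only.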

How the data were processed

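Per the file headers, the authors' scanner files were made with Agilent Feature Extraction 11.5.1.1 and hold signal intensity per spot, background-subtracted by that software. The authors' deposited table holds log2 values, with column medians between 8.68 and 8.69. Per the submitters' processing notes it was made with limma, and its centring is unknown. It served as an alternative.

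From the deposited intensity values, log2 was taken and each array's 75th percentile subtracted (334 to 711 intensity units). Control spots and 125 to 228 spots per array marked as outliers were left out, spots of a probe were averaged, and a probe entered the fit if at least 4 of the 8 arrays had it well above background. Diets were compared with limma 3.58.1 in R 4.3.3 (lmFit, eBayes, Benjamini-Hochberg over all probes, threshold 0.05), and single probes by exact permutation. The median standard error was 0.17, and the number of arrays limits the precision. In a test on simulated data for this comparison, with 26084 probes, 49 of 100 shifts of 1 and 83 of 100 shifts of 2 log2 units were called, with 10 false calls. The simulated arrays varied independently, with no slide or cell mixture effect. In the real arrays, 822 of 25923 probes differed between the slides (limma, adjusted p under 0.05), so these rates may not hold for them. Slides come from the file headers. On both slides the array position differed between the diets, so position and diet cannot be told apart. The labels do not say whether each replicate is 1 mouse or a pool, so p-values measure the spread between these samples.

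The genes and lists were chosen with earlier results of these data known. All 10 genes are named. Other transporter and metallothionein genes are named where their unadjusted p was under 0.05 or their probe was among the 3 with the highest mean of their list, a ranking used only to choose names, with the insulin genes for context. Genes that were not kept are named as such, and Slc39a4 and Slc39a5 were chosen after their values were seen. Alternatives covered background correction, normalization, scaling, filters, probe choice, eBayes settings, array weights, slide, replicate block, deposited values and leaving out each array; keeping the spots marked as outliers and relating the other Mt1 probe to Mt2 were added after seeing the data. Exons and UTRs were not analysed here, since the probe positions are on mm9 and the tables used for names on another build.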

Additional observations from a re-analysis of the deposited data

Results flagged for a closer look

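Slc39a14 on control array 3 stood at -0.36, away from the other 3 control arrays, which lay between -0.82 and -0.76. The gap to the nearest of them was 0.867 of the group's range, more than Dixon's test allows for 4 samples. It was 1 of 47 groups examined, and chance sets apart about 1 in 20.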

How the results depend on the processing

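Under all 24 alternatives, 0 of the 13 probes were called after adjustment, and the lowest adjusted p was 0.261. Over all probes 0 were called, except 1 with the deposited table and 1 with trended and robust eBayes. The count at an unadjusted p under 0.05, 1508 in the fit as reported, ran between 165 (normexp) and 2703 (without high-fat array 1). Among the 13 probes it was 0 in the fit as reported. It was 3 with the deposited table, 2 with quantile normalization, 4 with array weights and 6 on slide 2 alone. In those 4 fits the count over all probes was 1300, 1378, 2630 and 1904. Several alternatives (filters, eBayes settings) leave a difference itself as it is by construction. Under normexp, which moved the median of all probes to 0.19, the differences were -0.20 for Slc30a5, -0.22 for Slc39a6, -0.25 for Slc39a7, -0.20 for Slc30a4, -0.015 for Slc30a9, -0.28 for Slc39a1, -0.074 for Slc39a13, -0.39 for Ins1 and -0.37 for Ins2. With spots of high local background, at most 7 on an array, left out before normexp, none of these turned. Quantile normalization gave -0.012 for Slc39a7, -0.063 for Ins1 and -0.0095 for Ins2, and array weights gave -0.071 for Ins1 and -0.0030 for Ins2. Slide 1 alone gave -0.082 and -0.037 for the Slc30a7 probes at chr3:115645497-115645556 and chr3:115645002-115645061, -0.046 for Slc39a6, -0.031 for Slc39a10, 0.097 for Mt1, 0.60 for Mt2, -0.041 for Slc30a6 and -0.11 for Slc30a9. Slide 2 alone gave -0.097 for Mt3, -0.32 for Ins1 and -0.35 for Ins2, and the mean over probes gave -0.026 for Slc30a9. The cause of the turns outside normexp was not tested. Leaving out 1 array at a time gave -0.017 to 0.082 for Slc39a6, -0.061 to 0.31 for Slc39a10, -0.077 to 0.13 for Slc30a9, -0.086 to 0.075 for Mt3, -0.10 to 0.14 for Ins1 and -0.065 to 0.14 for Ins2, and -0.88 to -0.33 for Mt1 and -1.40 to -0.35 for Mt2. The r of Mt1 and Mt2 stayed between 0.931 and 0.997 for the NM_013602 probe, and was 0.848 for the other. Same-numbered arrays of the diets, which share a slide, deviated together with r of 0.237, 0.394, -0.024 and 0.299. For high-fat arrays 1, 2 and 4 the control with the highest r was the same-numbered one, and for high-fat array 3 it was control 1. The labels state no pairing and array 3 did not follow it, so the numbers were not taken as pairs in the fit as reported. With the replicate block, 2422 probes had an unadjusted p under 0.05 and 0 were called. The other Mt1 probe, lower on the high-fat diet in 4 of 4 numbers, then stood at -0.74 ± 0.17 (unadjusted p = 0.00741, adjusted p = 0.488 by limma). The SE of 0.108 to 0.480 of the 13 probes limits what 4 arrays a diet can show.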

Other observations

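Some zinc importers outside the chosen genes were chosen after their values were seen, for how they varied between arrays. Slc39a4 had levels of -1.58, 0.47, -2.37 and 0.46 on high-fat arrays 1 to 4, against -1.70, -0.51, -1.17 and -0.40 on the control arrays. Arrays 2 and 4 were higher than arrays 1 and 3 in both diets. Arrays 1 and 3 sat at positions 1 and 2 of their slides, and arrays 2 and 4 at positions 3 and 4. The mean level of 5 ductal cell markers had the same order. It was -1.22, -0.56, -1.81 and -0.61 on the high-fat diet, against -2.05, -1.07, -1.46 and -0.91 on the control diet. The part of position or ductal cells in the Slc39a4 values was not tested. Slc39a5 had levels of 0.54, -0.24, -1.25 and -0.96 on the high-fat diet, against -1.38, -0.42, 0.54 and -0.87 on the control diet, and its highest arrays, high-fat 1 and control 3, were those with the highest acinar marker levels of their diet.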
